A study of Mus musculus with 8 samples.

Results

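The genes described here encode the receptors and ligands of vessel growth and stability. They are the receptors Flt1, Kdr, Tek and Tie1, the ligands Vegfb, Vegfc, Angpt1 and Angpt2, and the junction proteins Pecam1 and Cdh5. These 10 genes were chosen by symbol, through their Ensembl IDs in GENCODE M21, and all 10 were among the 20781 genes of the count table. All 10 also passed the filter on low counts and were tested with the 16565 genes that did so.

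RNA was sequenced from cultured fibro-adipogenic progenitors (FAPs), the stromal cells of skeletal muscle that can form adipocytes or matrix-producing fibroblasts. The cells came from 3 uninjured hindlimb muscles (tibialis anterior, gastrocnemius and quadriceps) of wild-type male mice, with the strain written as C57BL/6 or C57BL/6J. They were cultured for 48 h and then given vehicle (4 libraries) or melatonin, the pineal hormone (4 libraries), for 24 h. Neither the age of the mice, nor the melatonin dose, nor the surface markers used for isolation was given in the sources used here. The protocol text instead names a back muscle, longissimus dorsi, for the RNA extraction, in conflict with the other labels. Library totals were 35584931 to 52401153 counts, and 3 counts in a library correspond to 0.056 to 0.0805 CPM (counts scaled to library size). The share of mitochondrially encoded transcripts was 1.05% to 1.3% with vehicle but 2.09% to 2.44% with melatonin, so the groups did not overlap, and the part of this difference in the changes given here was not tested. The labels call the replicates biological without saying whether each came from its own animal, so the p-values measure the spread between these libraries.

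In the VEGF system, secreted growth factors bind receptor tyrosine kinases on endothelial cells. VEGFR2, the product of Kdr, carries most of the growth signal, while VEGFR1, the product of Flt1, has weak kinase activity and also exists as a secreted form that traps ligand. Angiopoietins bind Tie2, the product of Tek. Angiopoietin 1, made largely by perivascular and stromal cells, activates Tie2 and steadies vessels, whereas angiopoietin 2 can oppose it. In muscle the stroma is known mainly as a source of the ligands, and the receptors are best known from endothelium.

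With melatonin, 3 of the 10 genes were higher and 3 were lower at an adjusted p under 0.05 (edgeR quasi-likelihood test, Benjamini-Hochberg adjustment over all tested genes). Flt1, Angpt1 and Vegfc fell, and Tek, Angpt2 and Vegfb rose. Of all tested genes 36.5% passed, 18.1% in the higher and 18.5% in the lower direction. The median log2 fold change of the 10 genes was 0.13, against 0.01 for all tested genes. For 5 of the 10 genes, the CPM of the groups did not overlap, as for 37.7% of all tested genes. The 10 genes were chosen with earlier results of these data known, so these counts are a description only. Below, CPM are scaled with TMM factors (edgeR's correction of library size), and a log2 fold change compares melatonin with vehicle and is given ± its standard error. Library totals alone would raise the median of all genes to 0.17, so changes are relative to the TMM scaling. In these bulk cultures, fewer cells of a type and less RNA per cell cannot be told apart.

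**Figure D1:**
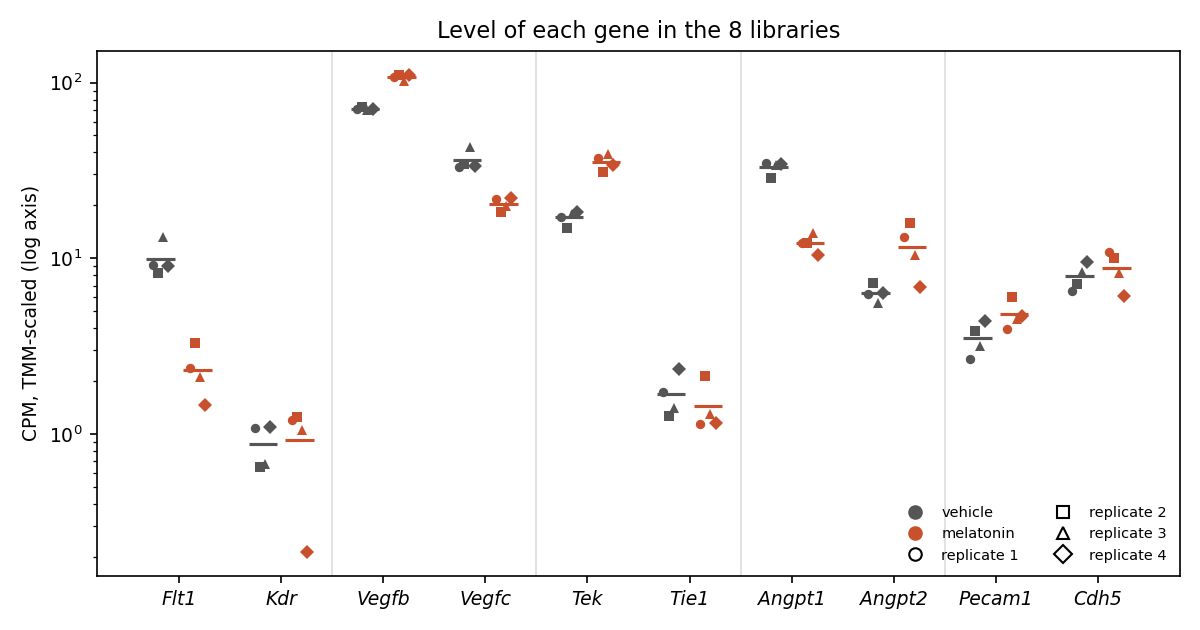
CPM (log axis) of the 10 genes in each of the 8 libraries, vehicle in grey and melatonin in orange, with a symbol for each replicate number and a bar at each group mean. Flt1, Angpt1 and Vegfc lie lower in every melatonin library, Tek and Vegfb lie higher, and Angpt2 in melatonin replicate 4 falls among the vehicle values.

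The upstream sequences of 3 receptor genes are shown because their calls differed: Flt1 fell, its sister receptor gene Kdr did not pass, and Tek rose. The 95% interval of the log2 fold change of Kdr, -0.89 to 1.08, includes that of Tek, 1.05, so Kdr and Tek were not shown to differ. Each is taken from RefSeq on GRCm38.p6 and runs 5′ to 3′ on the gene's strand, from 250 to 11 bases before the annotated start. Capitals mark matches to any of 5 motifs searched on both strands: ACGTG (the core of the hypoxia response element), TGACGTCA (the cyclic AMP response element), CCGGAA (an ETS factor core), TGANTCA (an AP-1 site) and TATAAA (the TATA box).
Flt1 upstream, chr5:147726022-147726261, minus strand: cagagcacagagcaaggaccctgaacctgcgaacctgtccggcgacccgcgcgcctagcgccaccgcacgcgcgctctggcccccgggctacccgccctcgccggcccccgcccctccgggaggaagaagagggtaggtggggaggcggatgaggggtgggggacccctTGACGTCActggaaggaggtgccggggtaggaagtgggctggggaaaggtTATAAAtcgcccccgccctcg
Kdr upstream, chr5:75978466-75978705, minus strand: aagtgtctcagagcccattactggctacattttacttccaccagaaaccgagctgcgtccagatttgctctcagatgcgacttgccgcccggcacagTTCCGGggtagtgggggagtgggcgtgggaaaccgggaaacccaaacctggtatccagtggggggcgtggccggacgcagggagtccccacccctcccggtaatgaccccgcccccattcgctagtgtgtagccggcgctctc
Tek upstream, chr4:94739039-94739278, plus strand: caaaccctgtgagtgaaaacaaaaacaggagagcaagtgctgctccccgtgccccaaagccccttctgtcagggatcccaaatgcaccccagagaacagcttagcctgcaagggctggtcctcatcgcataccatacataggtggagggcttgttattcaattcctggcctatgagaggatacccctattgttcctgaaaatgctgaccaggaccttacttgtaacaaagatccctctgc

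The Flt1 window held the letters TGACGTCA from -81 to -74 and TATAAA from -31 to -26, counted from the start. TGACGTCA stood in 1.4% and TATAAA in 12.1% of 32851 RefSeq windows of the same length. The Kdr window held 1 match, the reverse complement of CCGGAA from -153 to -148, a motif found in 11.2% of windows. No match to these letters was found in the Tek window, nor in those of Vegfb and Vegfc. The Tie1 window held none either, but 202 of its 240 bases lie in annotated exons of Tie1. Over all windows, ACGTG stood in 15.9% and TGANTCA in 6.6%. The G and C content was 70.8% for Flt1, 62.1% for Kdr and 50.8% for Tek. A match describes the letters only.

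Among the VEGF receptor genes, Flt1 (ENSMUSG00000029648, chromosome 5, 147561604 to 147726011, minus strand of GRCm38) stood at 9.15, 8.22, 13.2 and 9.04 CPM in vehicle replicates 1 to 4. In melatonin replicates 1 to 4 it stood at 2.38, 3.29, 2.13 and 1.48 CPM. Every melatonin library lay below every vehicle library, and melatonin replicate 4 was the lowest. Flt1 fell by 2.09 ± 0.24 on the log2 scale, which is 4.26-fold (edgeR adjusted p = 0.000115). This was the largest change among the 10 genes. Reads of the membrane and the secreted form of VEGFR1 are summed in 1 count, so the 2 forms were not distinguished.

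Kdr (ENSMUSG00000062960, chromosome 5, 75932827 to 75978458, minus strand) had the fewest counts of the 10 genes, 28 to 55 per vehicle library. Melatonin replicates 1 to 3 had 53 to 62 counts and melatonin replicate 4 had 8. Its CPM were 1.09, 0.648, 0.68 and 1.1 with vehicle and 1.2, 1.25, 1.06 and 0.215 with melatonin. The groups overlapped, and the spread within the melatonin group exceeded the difference between groups. The log2 fold change of Kdr was 0.10 ± 0.44 (edgeR adjusted p = 0.888), with a 95% interval from -0.89 to 1.08. Without melatonin replicate 4 it was 0.41 (edgeR adjusted p = 0.239). The standard error was 0.26 without that library, against 0.44 with it, and changes of nearly 2-fold in either direction lie within the interval over all 8 libraries.

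The ligand gene Vegfb (ENSMUSG00000024962, chromosome 19, 6982473 to 6987651, minus strand), whose product binds VEGFR1, stood at 70.5, 72.8, 69.4 and 70.8 CPM with vehicle. With melatonin it stood at 107, 111, 102 and 110.2 CPM. The libraries of each group lay close together and the groups were well apart. Vegfb rose by 0.60 ± 0.055 on the log2 scale, or 1.52-fold (edgeR adjusted p = 2.77e-05). Vegfb had the smallest standard error among the 10 genes.

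Vegfc (ENSMUSG00000031520, chromosome 8, 54077606 to 54187096, plus strand) encodes a ligand of VEGFR3 that drives lymphatic growth. Its CPM were 33, 34.6, 43.2 and 33.7 with vehicle and 21.6, 18.3, 19.7 and 21.9 with melatonin. All vehicle libraries lay above all melatonin libraries, with vehicle replicate 3 the highest. Vegfc fell by 0.82 ± 0.10 on the log2 scale, or 1.77-fold (edgeR adjusted p = 0.000223). Both ligand genes thus passed, in opposite directions.

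Tek (ENSMUSG00000006386, chromosome 4, 94739289 to 94874976, plus strand) stood at 17.2, 14.9, 18 and 18.2 CPM in the vehicle libraries. In the melatonin libraries it stood at 37.3, 30.8, 39 and 34.1 CPM. Each melatonin value was above each vehicle value. Tek rose by 1.05 ± 0.099 on the log2 scale, 2.06-fold (edgeR adjusted p = 3.46e-05). Behind these values are 645 to 910 counts per vehicle library and 1271 to 2090 per melatonin library.

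Tie1 (ENSMUSG00000033191, chromosome 4, 118471191 to 118490061, minus strand), which encodes a receptor that pairs with Tie2, stood at 1.73, 1.27, 1.4 and 2.35 CPM with vehicle. The melatonin values were 1.14, 2.15, 1.31 and 1.15 CPM. The groups overlapped, and melatonin replicate 2 stood apart from the other melatonin libraries. Its log2 fold change was -0.24 ± 0.27 (edgeR adjusted p = 0.541), with a 95% interval from -0.85 to 0.37, and -0.48 without melatonin replicate 2 (edgeR adjusted p = 0.178).

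Angpt1 (ENSMUSG00000022309, chromosome 15, 42424723 to 42676977, minus strand) encodes the activating ligand of Tie2. Its CPM were 34.7, 28.5, 34.2 and 34.2 with vehicle and 12.3, 12.2, 14 and 10.5 with melatonin. The groups did not overlap, and vehicle replicate 2 was the lowest of its group. Angpt1 fell by 1.42 ± 0.11 on the log2 scale, 2.68-fold (edgeR adjusted p = 8.32e-06). The antisense gene Gm17473 shares 14.2% of the exon bases of Angpt1 but had only 27 counts over all libraries. Whether the counting used strand is not stated in those sources.

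Angpt2 (ENSMUSG00000031465, chromosome 8, 18690263 to 18741562, minus strand) stood at 6.28, 7.25, 5.55 and 6.32 CPM with vehicle. The melatonin libraries stood at 13.2, 15.9, 10.5 and 6.84 CPM. Melatonin replicates 1 to 3 were above every vehicle library, while melatonin replicate 4 lay within the vehicle range. Angpt2 rose by 0.87 ± 0.23 on the log2 scale, 1.83-fold (edgeR adjusted p = 0.0136), and by 1.06 without melatonin replicate 4 (edgeR adjusted p = 0.00043). Angpt1 and Angpt2 therefore changed in opposite directions.

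**Figure D2:**
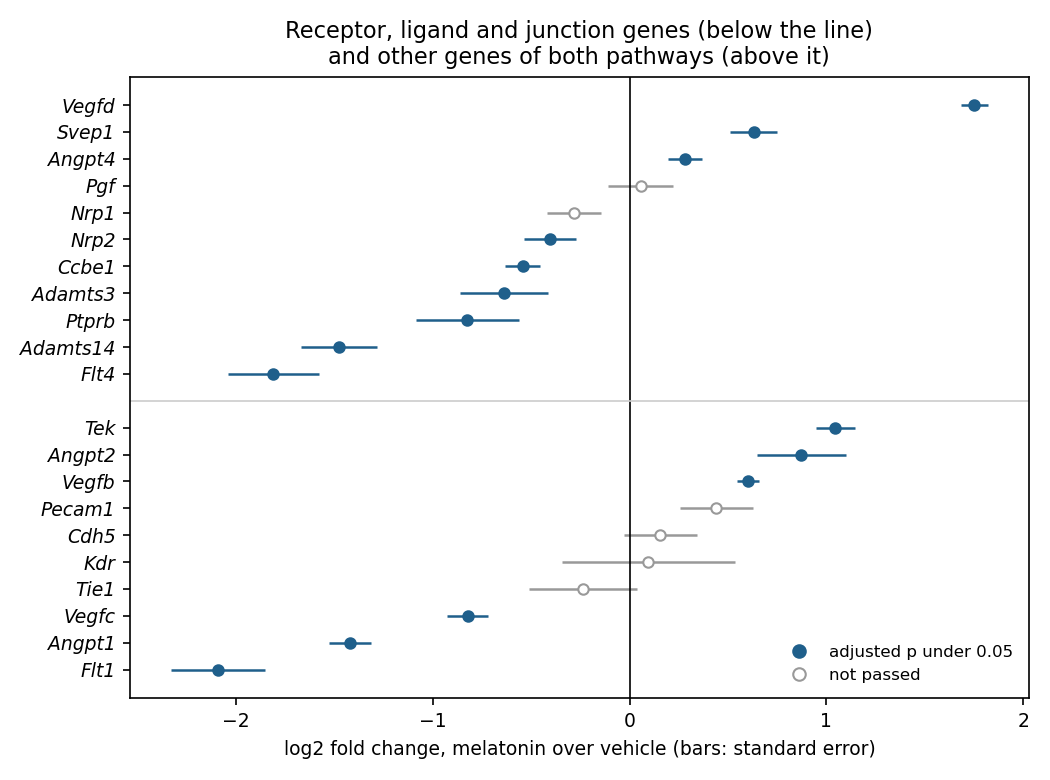
Log2 fold change of melatonin over vehicle for the 10 genes (lower block) and for 11 other genes of the VEGF and angiopoietin pathways (upper block), with bars of 1 standard error from edgeR. Filled points passed at an adjusted p under 0.05, and the values run from -2.09 for Flt1 to 1.75 for Vegfd.

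The junction genes did not pass. Pecam1 (ENSMUSG00000020717, chromosome 11, 106654217 to 106750628, minus strand) encodes CD31, an adhesion protein of endothelial cells, platelets and leukocytes. It stood at 2.7, 3.89, 3.16 and 4.39 CPM with vehicle and 3.97, 6.05, 4.5 and 4.69 CPM with melatonin. The groups overlapped through vehicle replicate 4 and melatonin replicate 1. Its log2 fold change was 0.44 ± 0.19 (edgeR adjusted p = 0.0928), and with library totals alone as the scaling it was 0.60 and passed (edgeR adjusted p = 0.0248).

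Cdh5 (ENSMUSG00000031871, chromosome 8, 104101625 to 104144511, plus strand) encodes VE-cadherin, the cadherin of endothelial junctions. Vehicle libraries stood at 6.56, 7.18, 8.37 and 9.48 CPM, and melatonin libraries at 10.8, 10, 8.27 and 6.09 CPM. Melatonin replicate 4 was the lowest and melatonin replicate 1 the highest of the 8 libraries, so the melatonin group enclosed the vehicle group. The log2 fold change of Cdh5 was 0.16 ± 0.19 (edgeR adjusted p = 0.552), with a 95% interval from -0.26 to 0.57.

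Ratios between paired genes within a library do not depend on the scaling of libraries. They were formed from counts per base of exon for 5 pairs. The pairs were chosen after the changes of their genes were seen, so the ratios are a description with no test. The Angpt1/Angpt2 ratio was 3.92, 2.79, 4.37 and 3.84 in the vehicle libraries and 0.661, 0.544, 0.951 and 1.09 in the melatonin libraries. Angpt1 was thus the higher of both per length in every vehicle library, whereas Angpt2 was the higher in melatonin replicates 1 and 2 and both were close in replicates 3 and 4. The ratio was 4.71-fold lower with melatonin.

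How often ratios of other gene pairs separate these groups was not computed, so the remaining ratios are given as values only. Vegfb/Vegfc was 2.45 to 3.27 with vehicle and 7.55 to 9.23 with melatonin, 2.68-fold higher. Flt1/Kdr was 5.48 to 13 with vehicle. With melatonin it was 1.33 to 1.75 in replicates 1 to 3 and 4.6 in replicate 4, where Kdr had 8 counts, and on average 3.93-fold lower. Tek/Tie1 was 8.12 to 13.4 with vehicle and 15 to 34 with melatonin, 2.44-fold higher. Pecam1/Cdh5 was 0.254 to 0.366 with vehicle and 0.247 to 0.52 with melatonin, and the groups overlapped.

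**Figure D3:**
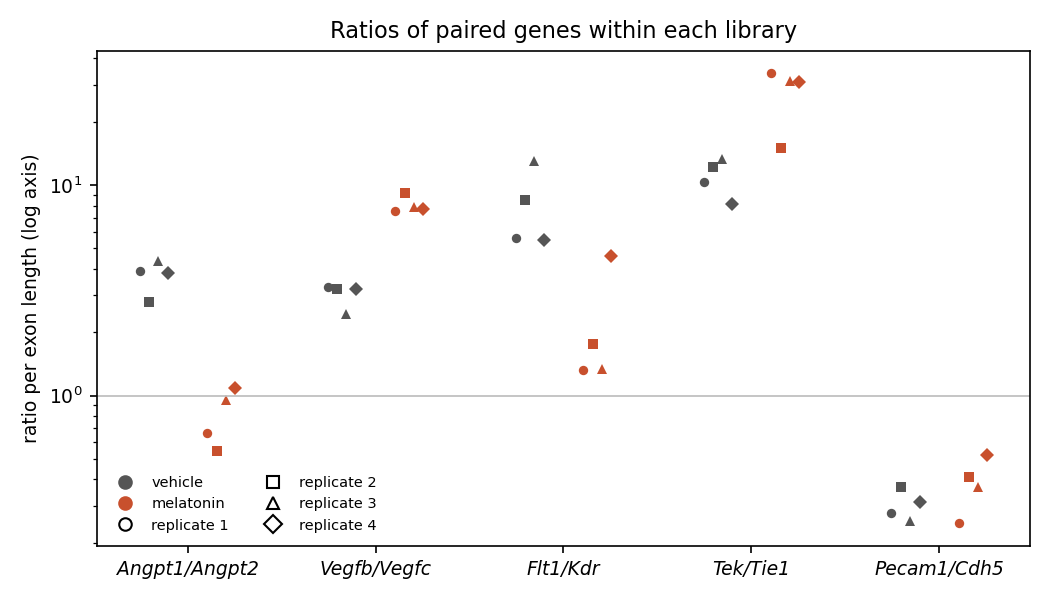
Ratio of 2 genes within each library (log axis), each as counts per base of exon, for 5 pairs, with vehicle in grey, melatonin in orange and a symbol for each replicate number. The Angpt1/Angpt2 ratio lies between 2.79 and 4.37 in vehicle libraries and between 0.544 and 1.09 in melatonin libraries, and Pecam1/Cdh5 overlaps between groups.

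Levels of different genes were compared as CPM per kb of exon, where exon length is the union over annotated isoforms. On this scale Vegfb was the highest of the 10 genes in both groups, at 44.2 ± 0.89 with vehicle and 67.1 ± 2.43 with melatonin (SD, n = 4). In the vehicle group Vegfc (14.7 ± 1.94), Angpt1 (6.32 ± 0.567) and Tek (3.63 ± 0.32) followed, each separated from the next over the 4 libraries. Cdh5 (1.88 ± 0.309) and Angpt2 (1.72 ± 0.189) overlapped. So did Flt1 (0.733 ± 0.165), Pecam1 (0.567 ± 0.121) and Tie1 (0.343 ± 0.0974) with their neighbours in this order, and Kdr was lowest at 0.0974 ± 0.0276. The ligand genes other than Angpt2 thus stood above all receptor genes in vehicle.

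With melatonin the order changed below Vegfb. Vegfc (8.34 ± 0.691) and Tek (7.49 ± 0.766) overlapped, as did Angpt2 (3.14 ± 1.05), Angpt1 (2.36 ± 0.275) and Cdh5 (2.09 ± 0.498) with their neighbours. Pecam1 (0.771 ± 0.142) followed, and Tie1 (0.293 ± 0.0978), Flt1 (0.172 ± 0.0555) and Kdr (0.103 ± 0.0538) overlapped with their neighbours. Flt1 went from the seventh to the ninth place and Tek from the fourth to the third.

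**Figure D4:**
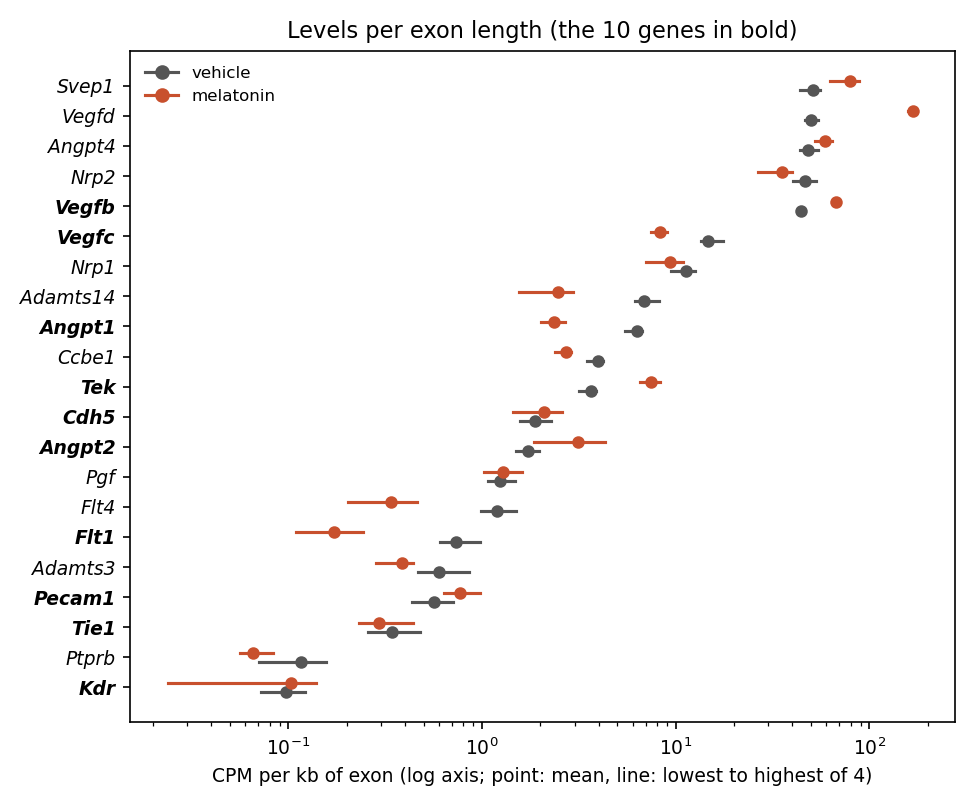
CPM per kb of exon (log axis) of the 10 genes (bold) and 11 other pathway genes, sorted by the vehicle mean, with the mean as a point and a line from the lowest to the highest of 4 libraries. Vegfb stands at 44.2 with vehicle and 67.1 with melatonin, and Kdr at 0.0974 and 0.103.

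Among 11 other genes of the 2 pathways, 3 rose and 6 fell, and 2 did not pass, against 18.1% higher and 18.5% lower over all tested genes. Their median log2 fold change was -0.41, against 0.01 for all tested genes. The VEGFR3 gene Flt4, receptor for the product of Vegfc, fell by 1.81 ± 0.23 in log2 (from 9.82 ± 1.78 to 2.79 ± 0.891 CPM, edgeR adjusted p = 0.000227). The other VEGFR3 ligand gene, Vegfd, rose from 120.3 ± 7.52 to 405 ± 18.6 CPM (1.75 ± 0.068, edgeR adjusted p = 2.86e-07). Per kb of exon Vegfd was at 50 ± 3.12 with vehicle and 168 ± 7.72 with melatonin, where it was the highest of the 21 genes. Pgf, which encodes placental growth factor, a ligand of VEGFR1, was at 3.61 ± 0.501 and 3.74 ± 0.687 CPM (0.06 ± 0.16, edgeR adjusted p = 0.82).

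The co-receptor gene Nrp2 fell by 0.41 ± 0.13 (edgeR adjusted p = 0.0383), while Nrp1 had a log2 fold change of -0.28 ± 0.14 (edgeR adjusted p = 0.14). The genes for maturation of VEGF-C also fell: Ccbe1, which encodes a cofactor, by 0.54 ± 0.087 (edgeR adjusted p = 0.00093), and Adamts3, its protease, by 0.64 ± 0.23 (edgeR adjusted p = 0.0493). The related protease gene Adamts14 fell by 1.48 ± 0.19 (edgeR adjusted p = 0.000289). On the angiopoietin side, Angpt4, another Tie2 ligand gene, rose by 0.28 ± 0.087 (112.6 ± 10.5 to 137 ± 11.8 CPM, edgeR adjusted p = 0.028). Svep1, which encodes a matrix protein that binds angiopoietins, rose by 0.63 ± 0.12 (edgeR adjusted p = 0.00264), and Ptprb, a phosphatase that acts on Tie2, fell by 0.82 ± 0.26 (edgeR adjusted p = 0.0327). The call of Adamts3 was lost under 12 of the 16 alternatives, 7 of them the omission of a single library (edgeR adjusted p up to 0.134). Those of Ptprb, Angpt4 and Nrp2 were lost under 8, 6 and 5 alternatives, of which 6, 5 and 4 left out a single library. Of the other pathway genes, 3 rather than 6 were lower with library totals alone and without vehicle replicate 1 or vehicle replicate 4. Every other omission of a single library gave 4 or 5 lower genes. So did the replicate block, limma-voom, upper-quartile factors and no filter on counts.

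Of 7 angiopoietin-like genes, whose products resemble angiopoietins but do not bind Tie2, 6 were in the table and tested. Of these 2 rose and 1 fell, against 18.1% higher and 18.5% lower over all tested genes. Angptl4, a lipase inhibitor gene, fell by 1.06 ± 0.087 (edgeR adjusted p = 1.55e-05), and Angptl1 (0.64 ± 0.17) and Angptl6 (0.64 ± 0.21) rose (edgeR adjusted p = 0.0167 and 0.0367). Without vehicle replicate 1, vehicle replicate 3 or melatonin replicate 2, 1 gene of this list was higher in place of 2, and without melatonin replicate 4, 2 were lower in place of 1. Angptl6 shares 265 exon bases with A230050P20Rik on the opposite strand, whose reads cannot be told apart from its own if the counting did not use strand.

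Markers of other cell types were read beside these results. Of 24 further endothelial markers, 23 were tested, and 2 rose, 3 fell and 18 did not pass. Over all tested genes 18.1% were higher and 18.5% lower. The median log2 fold change of these endothelial markers was -0.04. With library totals alone 5 rose and with the replicate block 1 rose. Without melatonin replicate 4, 4 rose, and without vehicle replicate 1 or 3 or melatonin replicate 1 or 2, 1 rose. Their summed level was 138 to 152 CPM with vehicle and 98.4 to 123 CPM with melatonin. Ecscr, an endothelial surface protein gene, made up much of that difference, going from 36.4 ± 3.84 to 4.15 ± 0.835 CPM (edgeR adjusted p = 7.66e-07). Without it the sums were 103 to 114 and 95.3 to 119 CPM. Most of the sums without Ecscr came from Clec14a (51.1 ± 5.3 and 44 ± 3.68 CPM) and S1pr1 (23.4 ± 2.01 and 26.1 ± 2.66 CPM). Vwf, which encodes the endothelial clotting factor, fell from 2.48 ± 0.77 to 0.576 ± 0.383 CPM (edgeR adjusted p = 0.0123), and Egfl7, a secreted endothelial factor gene, rose from 5.16 ± 0.716 to 10.3 ± 1.1 CPM (edgeR adjusted p = 0.000244). Egfl7 shares 64 exon bases with Agpat2 on the opposite strand, which had 21983 counts over all libraries. Reads of both genes there cannot be told apart if the counting did not use strand. The endothelial transcription factor gene Erg stood at 0.646 ± 0.16 and 0.545 ± 0.105 CPM. Of these markers only Mmrn1 was at 0 counts in a library, melatonin replicate 4. Vwf had 2 counts in that library, under the limit of 3, and 29 to 48 in melatonin replicates 1 to 3. The part of endothelial cells in the values of Tek, Flt1 or Angpt2 was not tested.

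Of 12 blood and macrophage markers 11 were tested, of which 3 fell (Cd14, Csf1r and Pf4) and 8 did not pass. With the replicate block 5 fell and 1 rose, and with library totals alone 2 fell and 2 rose. With DESeq2 or without melatonin replicate 4, 1 rose. Csf1r shares 873 exon bases with Hmgxb3 on the opposite strand, which had 22430 counts over all libraries. Reads of the 2 genes there cannot be told apart if the counting did not use strand. Most of the summed level of the blood and macrophage markers was Lyz2, at 444 ± 84.6 CPM with vehicle and 398 ± 97.7 CPM with melatonin. The sum was 540.4 to 815 CPM with vehicle, 591 to 640.2 CPM in melatonin replicates 1 to 3 and 349 CPM in melatonin replicate 4. Flt1, Kdr, Angpt1 and Cdh5 were also at their lowest of the 8 libraries in that replicate, as was the endothelial sum. So were the mural sum, Nrp1, Nrp2 and Pdgfra, while Thy1 and Angptl6 were at their highest there. The low values in that library were thus not limited to blood and endothelial genes. Of 9 mural cell markers 2 rose, the channel genes Abcc9 and Kcnj8, and 1 fell, Rgs5. The mural sums were 659 to 743 and 565 to 777 CPM, most of it Pdgfrb (551 ± 24.5 and 527 ± 56.4 CPM). The FAP markers stood at widely different levels. Pdgfra was at 56.8 ± 5.2 and 46.4 ± 7.39 CPM per kb and Dpp4 at 0.369 ± 0.0512 and 0.189 ± 0.0224, against 0.567 and 0.771 for Pecam1. The blood and macrophage marker Lyz2 was at 337 ± 64.3 with vehicle and 302 ± 74.2 CPM per kb with melatonin. Of 9 FAP markers 5 fell and 4, Pdgfra among them, did not pass. Beside the counts of these blood, mural and FAP lists, 18.1% of all tested genes were higher and 18.5% lower. The summed level of the 9 FAP markers was 2435 to 2475 CPM with vehicle and 1651 to 1780 CPM with melatonin, lower in every melatonin library. Dcn, which encodes the matrix proteoglycan decorin, fell from 911 ± 84.5 to 351 ± 42 CPM, 2.6-fold (edgeR adjusted p = 7.26e-06). It made up much of the fall in the sum. Thy1 was instead higher in every melatonin library, at 426 ± 10.8 and 491 ± 61.6 CPM, but did not pass (edgeR adjusted p = 0.094). Ly6a, the gene of the surface antigen Sca-1, fell 1.5-fold, Cd55 1.55-fold, Dpp4 1.95-fold and Lum 1.3-fold. With library totals alone, or without melatonin replicate 3, 1 FAP marker rose. How far these cell types bear on the 10 genes was not tested.

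The genes whose values over the 8 libraries lay nearest were found by the root mean square difference of log2 CPM, each gene centred on its own mean. Against 13583 other genes averaging at least 1 CPM, Vegfb lay closest to Cpt2 (0.026) and Rab4a (0.032). Tek lay closest to Fgfr2 (0.078) and Amot (0.088), and Flt1 to Piwil4 (0.083) and Mmp13 (0.091). For Vegfc the nearest were Orai2 (0.074) and Jpt2 (0.077), for Angpt1 Map3k6 (0.10) and Pde10a (0.11), and for Angpt2 H19 (0.16) and Ms4a7 (0.16). Cdh5 lay nearest to Phf23 (0.098) and Arsi (0.11), Pecam1 to Ndufb10 (0.11) and Gm12657 (0.13), and Tie1 to Gm16365 (0.15) and Naaladl2 (0.17). These differences are on the log2 scale and describe 8 libraries only, and Kdr was left out because it averaged under 1 CPM.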

How the data were processed

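Bulk RNA sequencing was analysed from 4 vehicle and 4 melatonin cultures. The authors deposited whole-number counts for 20781 Ensembl genes, each with at least 11 counts over the 8 libraries. The build was mm10, and HISAT2 2.0, StringTie 1.3.3b, Trimmomatic 0.36, DESeq2 1.12.4, FastQC 0.11.2 and bedtools 2.26.0 were used, per the submitters' processing notes. No counting program, annotation or strand setting was given in the sources used here. Columns prefixed con were read as vehicle, the only other group. Symbols, positions and exon lengths came from GENCODE M21 on GRCm38, which held 20720 of the gene IDs. Genes were kept with filterByExpr, scaled with TMM and tested over all kept genes with edgeR 4.0.16 (robust quasi-likelihood F-test, group only, two-sided), with Benjamini-Hochberg adjustment and a threshold of 0.05. The standard error is the log2 fold change divided by the square root of F. As alternatives, other scalings and filters, limma-voom (limma 3.58.1), DESeq2 1.42.0, a replicate block and the omission of single libraries were run. The fit was tested on simulated counts. Every replicate pair differed by more than sampling noise (chi-square of 24.9 to 79.3 per gene). Pairs with melatonin replicate 4, the library with the smallest total, had 61.5 to 79.3, and all other pairs had 24.9 to 45. The limit of 3 counts covers counting error alone, as no molecular identifiers are mentioned. The 10 genes, gene lists, ratios and motifs were chosen with earlier results of these data known. A permutation test of the ratios is not quoted, since the pairs were chosen on the same values. Named genes are the 10, the 11 other pathway genes, up to 3 of smallest p from other lists and the 2 nearest in pattern. Erg, Pdgfra, Dpp4, Lum, Thy1, Mmrn1, Clec14a, S1pr1, Lyz2, Pdgfrb and overlapping genes were named after their values were seen. Not every VEGF ligand gene is reported here. Promoter windows were found in RefSeq for 6 of the 10 genes.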

Additional observations from a re-analysis of the deposited data

Results flagged for a closer look

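In a group of 4, a library was singled out when its gap to the nearest other library exceeded 0.829 of the group's range, which chance gives in about 1 of 20 groups; 64 groups of values were screened. Tie1 stood at 2.15 CPM in melatonin replicate 2, against 1.14 to 1.31 in the other melatonin libraries, and the Tek/Tie1 ratio there was 15, against 30.8 to 34. Angpt1 stood at 28.5 CPM in vehicle replicate 2, against 34.2 to 34.7 in the others. Vegfc stood at 43.2 CPM in vehicle replicate 3, against 33 to 34.6, and the Vegfb/Vegfc ratio there was 2.45, against 3.21 to 3.27. The Flt1/Kdr ratio was 4.6 in melatonin replicate 4, against 1.33 to 1.75, in the library where Kdr had 8 counts. The summed level of blood and macrophage markers was 349 CPM in melatonin replicate 4, against 591 to 640.2. The summed level of FAP markers was 2475 CPM in vehicle replicate 1, against 2435 to 2442.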

How the results depend on the processing

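The 6 genes that passed among the 10 kept their direction and their call under all 16 alternatives, and Tie1 and Cdh5 did not pass under any. Pecam1 passed with library totals alone, which made 4 genes higher in place of 3. Kdr changed sign with the replicate block (-0.0078), with limma-voom (-0.078), without vehicle replicate 2 or 3 (-0.024 and -0.01) and without melatonin replicate 1 or 2 (-0.036 and -0.063), and Pgf without vehicle replicate 4 (-0.0097) or melatonin replicate 3 (-0.053); the cause was not tested. Leaving out single libraries gave -0.063 to 0.41 for Kdr and -0.053 to 0.16 for Pgf. Over all genes, library totals alone gave 5099 higher and 2237 lower genes (69.5% higher) in place of 2992 and 3062 (49.4%). Leaving out 1 library gave 2403 to 3284 higher and 2671 to 3282 lower genes. No pairing by replicate number was seen: same-numbered libraries correlated at -0.039 to 0.044 over genes in their deviations from the group means. Differently numbered libraries correlated at -0.10 to 0.148. With 4 libraries per group, this cannot show whether same-numbered cultures shared an animal. With the replicate block 2293 genes were higher and 2649 lower, and of the 10 genes 3 and 3. Among the other pathway genes, 31 results lost their call, those of Angpt4, Nrp2, Ptprb and Adamts3, and with library totals alone 3 were lower in place of 6. Kdr, Tie1 and Ptprb rest on 8 to 117 counts per library, which limits their precision.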
